A study of Homo sapiens with 6 samples.

Results

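The 10 genes described here, NQO1, NQO2, PIR, OSGIN1, CBR1, CBR3, EPHX1, UGDH, TRIM16L and CYP4F11, encode detoxification enzymes and related proteins linked to the transcription factor NRF2. They were chosen by name, with earlier results of these data known, so counts over them describe and do not test. Each had a row among the 25992 genes of the deposited count table. RNA was sequenced from 786-O, a human renal cell carcinoma line in wide use as a model of clear cell disease, labelled wild type here. The line has lost VHL function, so control and copper cells alike keep hypoxia-inducible factor active. Copper-adapted cells (3 libraries) grew in DMEM/F12 with 10% serum that had been loaded with CuSO4, and control cells (3 libraries) received serum handled the same way with no copper added. The design text gives 30 uM copper, whereas the treatment labels give 30, 31 and 32 uM for copper replicates 1, 2 and 3. The comparison addresses how lasting copper exposure alters the expression of metabolic genes in these cells.

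NRF2 is normally held in the cytoplasm and degraded through its sensor KEAP1. Electrophiles and oxidants that modify KEAP1 let NRF2 accumulate, enter the nucleus, pair with small MAF proteins and bind antioxidant response elements near its target genes. Its targets include the enzymes of glutathione synthesis and the reductases and hydrolases that render quinones, carbonyls and epoxides less reactive, and NQO1 is widely used as a readout of the pathway. Copper cycles between oxidation states and binds thiols, and kidney tubule cells carry these enzymes as part of their handling of foreign compounds.

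RefSeq promoter windows (GRCh38.p14, 250 bases before to 50 after a transcript start) were matched for 8 of the 10 genes, in 11 windows, and were not matched for CBR3 and TRIM16L. Both strands were searched for the core antioxidant response element TGACNNNGC and for the related NRF2-MAF form TGAGTCAGC. The core was present in PIR, CBR1, EPHX1 and CYP4F11, in 4 of the 11 windows, and 13.3% of all 35116 windows in the table held it. The form TGAGTCAGC was present in OSGIN1, in 1 of the 11 windows, and in 0.461% of all windows. The matched stretches are shown because they set genes whose copper libraries all lay above the control libraries (PIR, OSGIN1, EPHX1, CYP4F11) beside CBR1, whose groups overlapped. Whether the matches bear on these levels was not tested. Each stretch is on the gene's strand, 5′ to 3′, with the match in capitals. In PIR, CBR1, CYP4F11 and OSGIN1 the capitals are the reverse complement of the motif, and in EPHX1 they are the motif itself.
PIR (chrX:15493289-15493317, minus strand): gccgcgaagcGCTGAGTCAcggtgaggct
OSGIN1 (chr16:83953131-83953159, plus strand): acgggcccctGCTGACTCAcgcttatgaa
EPHX1 (chr1:225825266-225825294, plus strand): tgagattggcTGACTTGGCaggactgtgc
CYP4F11 (chr19:15935005-15935033, minus strand): ctgtgcccatGCTGTGTCAccctgagctg
CBR1 (chr21:36069855-36069883, plus strand): tgcgggttctGCAAAGTCAggctagctgg

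The matches began 78 bases before the start in EPHX1 (the most downstream of its 3 RefSeq starts), 99 in OSGIN1, 156 in CYP4F11 and 159 in CBR1, and 27 bases into the transcript in PIR. NQO1, NQO2 and UGDH held neither form in this window, which says only that these letters are not there. The 250 bases before the NQO1 start are shown because NQO1 had the smallest p of the 10 genes. Their capitals mark TATATAA, which resembles a TATA box. Searched on both strands, it was in 2.57% of all windows and in no other window of these genes.
NQO1 (chr16:69726561-69726810, minus strand): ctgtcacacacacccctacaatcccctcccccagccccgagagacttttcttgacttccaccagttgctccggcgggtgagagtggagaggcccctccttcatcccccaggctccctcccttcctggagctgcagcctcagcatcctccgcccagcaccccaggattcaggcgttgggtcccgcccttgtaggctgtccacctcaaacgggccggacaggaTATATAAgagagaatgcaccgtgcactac

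The libraries held 16301903 to 25080117 counts, with the control libraries deeper than the copper libraries, and 12944 genes passed the filter on low counts, among them all 10 described here. Levels are given as CPM, counts per 1000000 counts of the TMM-scaled library size. In both groups replicate 3 was unlike the others. On the first principal component (57.9% of the variance in log2 CPM) it lay at 41.2 in copper and 17.6 in control, and the other 4 libraries lay between -17.6 and -11.7. The 8 listed renal carcinoma line genes summed to 4150 to 5003 CPM in copper and 4416 to 4734 in control. VIM, which is not particular to kidney, made up most of this, at 2763 to 3788 CPM in copper and 2891 to 3283 in control. PAX8, a renal lineage factor, was at 133 ± 9.65 CPM in copper and 139 ± 12.3 in control (SD, n = 3). CA9, a target of hypoxia-inducible factor, had 0 to 2 counts per library and was not tested. PAX2 was higher in every copper library, with a log2 fold change of 0.36 and an adjusted p of 1.00 by edgeR. The 8 marker genes of endothelial cells, leukocytes, myofibroblasts and melanocytes summed to 4.75 to 5.61 CPM in copper and 4.41 to 4.51 in control, with none at 0 in all libraries. Their part in the results was not tested. The labels do not say whether the libraries came from separate cultures, so p-values measure the spread between these libraries, which may be technical.

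All 10 genes had log2 fold changes above 0 in copper, median 0.32, against 51.4% of genes positive and a median of 0.0051 over all 12944 tested. For NQO1, PIR, OSGIN1, EPHX1 and CYP4F11 the 3 copper libraries all lay above the 3 control libraries, and no gene of the 10 showed the opposite. Of all tested genes, 5.45% had every copper library above every control library and 5.35% had every one below. The quasi-likelihood test of edgeR, adjusted over all tested genes, called 0 of the 10 at an adjusted p under 0.05, and it called 0% of all genes. At an unadjusted p under 0.05, 5 of the 10 were higher in copper and 0 lower, against 1.92% of all genes higher. With the replicate number as a block, edgeR called NQO1 and PIR higher, where it called 0.124% of all genes higher. DESeq2 without the block called NQO1, PIR and CYP4F11 (0.139% of all genes higher). In bulk RNA, more transcript per cell and a larger share of cells carrying it cannot be told apart.

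**Figure D1:**
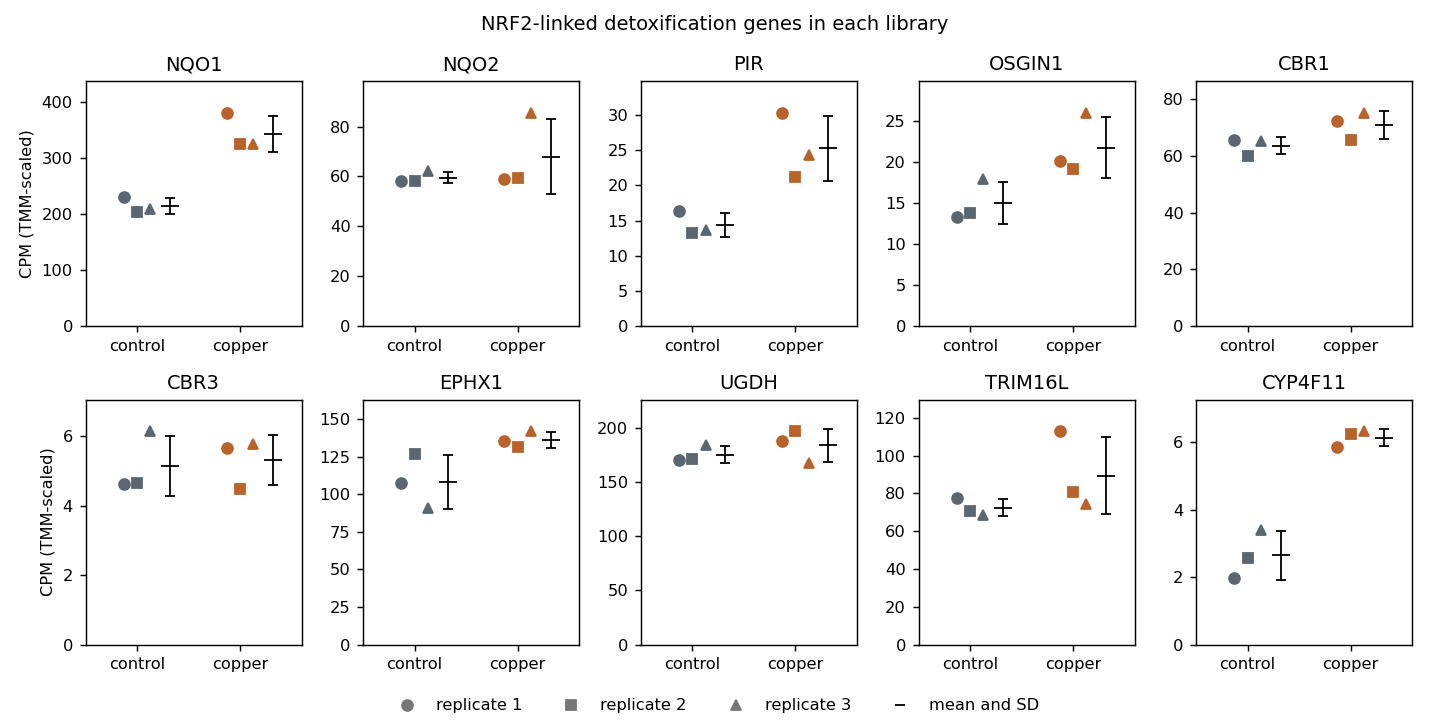
TMM-scaled counts scaled to library size (CPM, vertical axes from 0) of each of the 10 genes in the 3 control (grey) and 3 copper (orange) libraries, with marker shape giving the replicate and the bar the mean and SD. NQO1 spanned 204 to 230 CPM in control against 325 to 381 in copper, while CBR3 overlapped between groups.

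NQO1 (Entrez 1728; chromosome 16, 69709401 to 69726560) encodes the flavoprotein that reduces quinones straight to hydroquinones with NADH or NADPH. Its level was 381, 326 and 325 CPM in copper replicates 1, 2 and 3 and 230, 204 and 210 CPM in control replicates 1, 2 and 3. The lowest copper library, at 325 CPM, stood well above the highest control library, at 230 CPM. The means were 344 ± 32.1 and 215 ± 13.8 CPM (SD, n = 3). By edgeR the log2 fold change was 0.68 (SE 0.11), at adjusted p-values of 0.241 unblocked and 0.0232 with the replicate block. The difference was similar in the 3 same-numbered pairs, at 0.73, 0.68 and 0.63 on the log2 scale. Between 4003 and 6250 counts stood behind each value. Without copper replicate 3, NQO1 was called by edgeR without the block (log2 fold change 0.72, adjusted p 0.0290), where 0.0916% of all genes were called higher.

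NQO2 (Entrez 4835; chromosome 6, 2999816 to 3019876) encodes a sister quinone reductase that prefers dihydronicotinamide riboside as its electron donor. It measured 59.1, 59.3 and 85.5 CPM in copper and 58.3, 58.2 and 62.2 CPM in control. Copper replicate 3 alone was high, and the other 5 libraries lay close together. The log2 fold change was 0.19 (SE 0.16; 95% interval -0.17 to 0.55), and without copper replicate 3 it was -0.0087. The ratio of NQO1 to NQO2 counts within a library was 6.44, 5.50 and 3.80 in copper and 3.95, 3.51 and 3.37 in control. Copper replicate 3, in which NQO2 was highest, lay below control replicate 1 in this ratio, and the other copper libraries lay above all controls.

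CBR1 (Entrez 873; chromosome 21, 36070024 to 36073164) and CBR3 (Entrez 874; chromosome 21, 36135079 to 36146562) are carbonyl reductase genes on the same strand, 61914 bases apart. Both enzymes reduce aldehydes and ketones with NADPH. CBR1 measured 72.4, 65.5 and 75.2 CPM in copper and 65.8, 60.1 and 65.1 CPM in control. Each copper library exceeded the control library of its own number, but copper replicate 2 lay below control replicate 1. The log2 fold change of CBR1 was 0.16 (SE 0.10; 95% interval -0.07 to 0.38). CBR3 measured 5.67, 4.49 and 5.77 CPM in copper and 4.63, 4.66 and 6.13 CPM in control, so its highest and its lowest library were control replicate 3 and copper replicate 2. Its log2 fold change was 0.05 (SE 0.19; 95% interval -0.39 to 0.49), and its sign turned when certain single libraries were left out. The antisense gene CBR3-AS1 spans all of CBR3 and had 67 to 81 counts beside 80 to 117 for CBR3. Whether the counting used strand is not given in the sources used here, so the split between them is uncertain.

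EPHX1 (Entrez 2052; chromosome 1, 225825354 to 225845561) encodes microsomal epoxide hydrolase, which opens reactive epoxides into diols. It measured 135, 131 and 142 CPM in copper and 107, 127 and 91.0 CPM in control. The copper libraries were close to each other and above all controls, but control replicate 2 came close to the lowest of them. The means were 136 ± 5.31 and 108 ± 17.9 CPM (SD, n = 3). The log2 fold change was 0.33 (SE 0.13), and edgeR gave adjusted p-values of 1.00 unblocked and 0.501 blocked. The pairs differed by 0.34, 0.05 and 0.64, and in replicates 1 and 2 alone the log2 fold change was 0.19.

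UGDH (Entrez 7358; chromosome 4, 39498755 to 39527439) encodes the dehydrogenase that turns UDP-glucose into UDP-glucuronate, the donor for glucuronidation and for hyaluronan and proteoglycan chains. It measured 188, 197 and 167 CPM in copper and 170, 171 and 184 CPM in control. Copper replicates 1 and 2 were the highest of the 6 libraries, and copper replicate 3 was the lowest. The log2 fold change was 0.07 (SE 0.10; 95% interval -0.16 to 0.30). In replicates 1 and 2 alone it was 0.17, and the blocked fit of those 4 libraries called it (adjusted p 0.0168 by edgeR). That fit called 2.88% of all genes higher.

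CYP4F11 (Entrez 57834; chromosome 19, 15912370 to 15934866) encodes a cytochrome P450 that hydroxylates the far end of long-chain fatty acids. It measured 5.85, 6.23 and 6.31 CPM in copper and 1.97, 2.55 and 3.41 CPM in control. The copper libraries were nearly alike, and all of them lay well above the highest control library, replicate 3. Its log2 fold change of 1.20 (SE 0.22) was the largest of the 10 genes, and the pairs differed by 1.52, 1.25 and 0.87. Adjusted p-values were 0.462 (edgeR), 0.0538 (edgeR, blocked) and 0.00195 (DESeq2, unblocked). These values rest on 49 to 117 counts per library. Of the related genes, CYP4F2, CYP4F3 and CYP4F12 had 0 or 1 count in every library of this table.

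PIR and OSGIN1 are NRF2-linked genes outside the classical detoxification enzymes. PIR (Entrez 8544; chromosome X, 15384801 to 15493588) encodes pirin, an iron-binding nuclear protein of the cupin fold. It measured 30.3, 21.1 and 24.4 CPM in copper and 16.3, 13.2 and 13.6 CPM in control. All copper libraries were above all controls, and replicate 1 was the highest in each group. The means were 25.3 ± 4.64 and 14.4 ± 1.69 CPM (SD, n = 3), which is 0.81 (SE 0.16) as a log2 fold change. Adjusted p-values were 0.710 (edgeR), 0.0260 (edgeR, blocked) and 0.0103 (DESeq2, unblocked). The pairs differed by 0.89, 0.67 and 0.84.

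OSGIN1 (Entrez 29948; chromosome 16, 83953240 to 83966332) encodes an oxidative stress induced growth inhibitor. It measured 20.1, 19.1 and 26.0 CPM in copper and 13.3, 13.8 and 18.0 CPM in control. Replicate 3 was the highest in each group, and control replicate 3 came close to copper replicate 2. The log2 fold change was 0.53 (SE 0.17), with pair differences of 0.59, 0.47 and 0.53, and edgeR's adjusted p-values were 1.00 unblocked and 0.123 blocked. In replicates 1 and 2 alone, edgeR without the block called NQO1, CYP4F11 and OSGIN1, the last with an adjusted p of 0.0312. That fit called 0.501% of all genes higher.

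TRIM16L (Entrez 147166; chromosome 17, 18697998 to 18736112) is a shortened relative of TRIM16, a tripartite motif protein, and the counts of these close copies may be split between them. It measured 113, 80.7 and 74.7 CPM in copper and 77.4, 70.9 and 68.7 CPM in control. Copper replicate 1 stood apart, and the other 5 libraries lay between 68.7 and 80.7 CPM. The log2 fold change was 0.30 (SE 0.16; 95% interval -0.07 to 0.68), and without copper replicate 1 it was 0.10. Without copper replicate 3 it was 0.42, and the groups then did not overlap. The blocked fit of replicates 1 and 2 alone called TRIM16L (adjusted p 0.0418 by edgeR), where 2.88% of all genes were called higher. TRIM16 measured 60.8, 44.7 and 43.1 CPM in copper and 42.1, 40.4 and 36.3 CPM in control, so that it did not overlap between groups, unlike TRIM16L. Its log2 fold change was 0.32 (adjusted p 1.00 by edgeR). The ratio of TRIM16L to TRIM16 counts was 1.73 to 1.85 in copper and 1.75 to 1.89 in control.

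**Figure D2:**
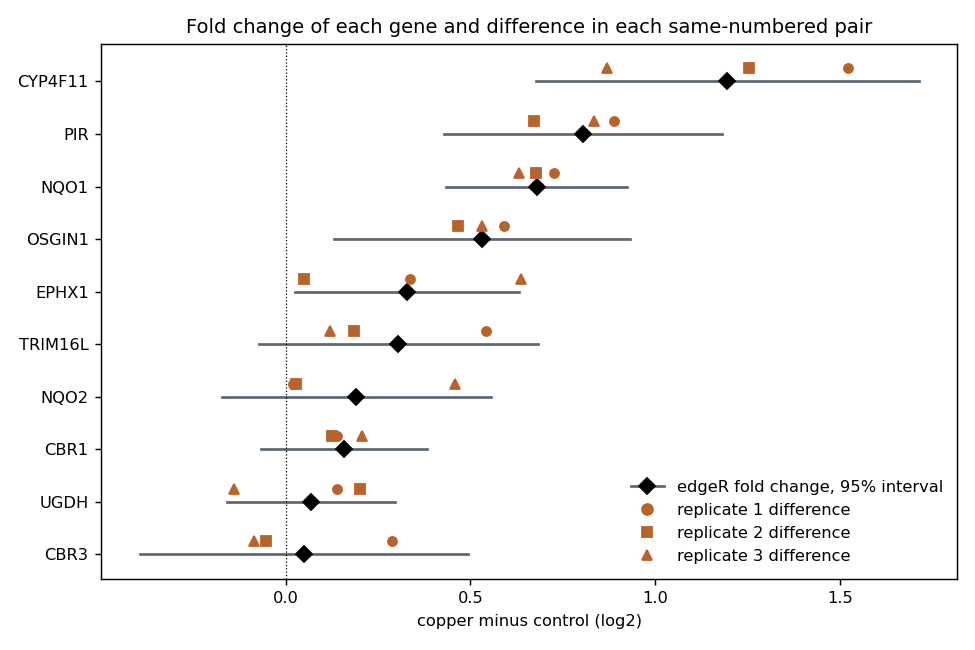
Log2 fold change of each gene, copper over control, with its 95% interval from edgeR (black diamonds and lines), and the log2 difference within each same-numbered pair (orange, shape by replicate). The pair differences of NQO1, PIR and OSGIN1 lie close together, those of CYP4F11 run from 0.87 to 1.52, and those of CBR3 and UGDH fall on both sides of 0.

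The replicate pairs gave the same direction for 8 of the 10 genes. CBR3 and UGDH were the exceptions. Of all tested genes, 17.7% were higher in copper in all 3 pairs. The median difference over the 10 genes was 0.44, 0.19 and 0.49 in pairs 1, 2 and 3, and over all genes it was at most 0.0066 in any pair. The genes with the smallest differences in pair 2, NQO2, EPHX1 and CBR3, had -0.05 to 0.05 there.

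To compare the genes with each other, levels were divided by the median length of their GENCODE 29 protein-coding transcripts. NQO1 had the highest level per kilobase in every library, with 201 to 227 CPM per kb in control and 320 to 376 in copper. EPHX1, UGDH, NQO2 and CBR1 followed at control means of 60.8, 59.9, 56.2 and 55.0 CPM per kb, and neighbours in that order overlapped. TRIM16L was next at 36.5 ± 2.29 CPM per kb in control, followed by PIR at 10.2 ± 1.19, OSGIN1 at 7.21 ± 1.23, CBR3 at 4.39 ± 0.74 and CYP4F11 at 0.91 ± 0.25 (SD, n = 3), with no overlap between neighbours there. In copper NQO2 stood above UGDH by mean only through replicate 3, at 80.7 against 57.2 CPM per kb. In replicates 1 and 2 it lay below UGDH, at 55.8 and 56.0 against 64.2 and 67.2. CYP4F11, the gene with the largest fold change, thus had the lowest level of the 10 in both groups.

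Likeness to NQO1 was measured as the root mean square difference between log2 CPM profiles over the 6 libraries, each centred on its own mean, among 9257 genes averaging 10 CPM or more. The nearest gene was AIFM2, at 0.077, and the second was PIR, at 0.11. AIFM2, also known as FSP1, encodes a membrane-bound oxidoreductase that reduces ubiquinone with NADPH or NADH. It measured 23.0, 23.6 and 21.5 CPM in copper and 15.8, 13.5 and 14.3 CPM in control, with no overlap, and its log2 fold change was 0.64 (SE 0.11). For it edgeR gave adjusted p-values of 0.401 unblocked and 0.0755 blocked. GCNT3, a mucin glycosyltransferase gene, BHMT2, a methyltransferase gene of methionine metabolism, and HGD, a gene of tyrosine breakdown, followed at 0.13 each. Their log2 fold changes were 0.48, 0.88 and 0.46. The nearest genes were picked by likeness to NQO1, so their direction follows from the choice. By edgeR, the adjusted p-values of GCNT3 were 1.00 unblocked and 0.145 blocked, those of BHMT2 0.0843 and 0.0138, and those of HGD 1.00 and 0.15. Among the described genes, TRIM16L, EPHX1 and OSGIN1 were at 0.23, 0.25 and 0.25, and CYP4F11 was the farthest at 0.39. CYP4F11 and CBR3 (0.37) averaged under 10 CPM and so were outside the 9257 genes. The measure counts differences in size as well as in shape, and the log2 fold change was 1.20 for CYP4F11 and 0.68 for NQO1.

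**Figure D3:**
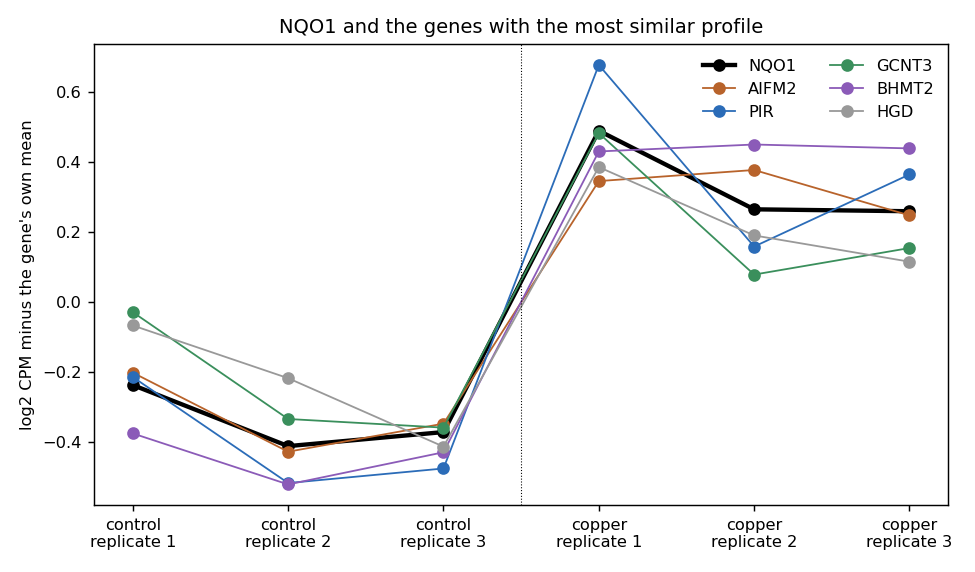
Log2 CPM of NQO1 (thick black line) and of the 5 genes with the nearest profile in each library, minus the gene's own mean over the 6 libraries. All 6 genes lie below their mean in the 3 control libraries and above it in the 3 copper libraries, and AIFM2 follows NQO1 with a root mean square difference of 0.077. The 5 genes were picked for this likeness, so the shared pattern follows from the choice.

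Other genes of the pathway were taken from lists written from general knowledge, also with earlier results of these data known. Of 33 further NRF2 targets, 30 were tested, 29 lay above 0 in log2 fold change and the median was 0.32, as for the 10 genes. In 14 of them every copper library was above every control library (5.45% of all genes), and in 0 every one was below. The fit without the block called 0 of the 30, and the blocked fit called AKR1C3, AKR1C1, HMOX1 and MGST1 higher and 0 lower. Of all genes, the blocked fit called 0.124% higher. AKR1C3, an aldo-keto reductase gene, had the largest log2 fold change of the list at 2.00, and MGST1, a membrane glutathione transferase gene, had 0.64. The catalytic glutathione synthesis gene GCLC measured 38.3, 37.6 and 29.8 CPM in copper and 29, 30.4 and 29.4 CPM in control. Only copper replicate 3 lay among the controls, and the pairs differed by 0.40, 0.31 and 0.016. In replicates 1 and 2 alone, edgeR without the block called 11 of the 30 higher. These were GCLM, SLC7A11, HMOX1, TXNRD1, PGD, ME1, AKR1B10, AKR1C1, AKR1C3, MGST1 and PTGR1. That fit called 0.501% of all genes higher. Its calls in this and the following lists were added after the data were seen. In pair 3, which it leaves out, copper was lower for SLC7A11 (log2 difference -0.44) and TXNRD1 (-0.23). GCLM (0.0023) and ME1 (0.063) differed little there, and the others ran from 0.42 in PGD to 1.83 in AKR1C3.

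Of 9 listed regulators of the pathway, 8 were tested and 4 lay above 0 in log2 fold change, with a median of 0.02. Transcripts of NFE2L2, which encodes NRF2, were at 196 ± 20.0 CPM in copper and 198 ± 14.2 in control (SD, n = 3), and those of KEAP1 at 83.7 ± 6.63 and 80.7 ± 6.99. SQSTM1, the gene of the adaptor p62 that competes for KEAP1, had the smallest p of the list, with 176 ± 20.8 and 137 ± 9.67 CPM. Its log2 fold change was 0.36, at edgeR adjusted p-values of 1.00 unblocked and 0.289 blocked. In replicates 1 and 2 alone it was called (adjusted p 0.0165 by edgeR without the block), where 0.501% of all genes were called higher. In 2 of the 8, MAFG and SQSTM1, every copper library was above every control library (5.45% of all genes). In NFE2L1 every copper library was below every control library (5.35% of all genes). MAFG, a small MAF partner gene, was at 107 to 111 CPM in copper and 95.3 to 100.5 in control. NFE2L1, a relative of NRF2, was at 220 to 231 and 252 to 263 CPM. NRF2 activity is set largely by the amount of its protein, which was not measured here.

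Because NQO1 also responds to the dioxin receptor, genes of that receptor were examined. Of 7 listed, 4 were tested, 0 were called in the 6 libraries with or without the block, and the median log2 fold change was 0.02. The list median in pairs 1, 2 and 3 was 0.10, 0.08 and -0.25. CYP1B1, a cytochrome P450 gene, measured 53.8, 43.6 and 18.0 CPM in copper and 35.5, 34.1 and 20.7 CPM in control. Copper was higher in pairs 1 and 2 and lower in pair 3, with log2 differences of 0.60, 0.35 and -0.20. Without replicate 3 of both groups, edgeR without the block called it (log2 fold change 0.48, adjusted p 0.0491). That fit called 0.501% of all genes higher. AHR itself was at 36.6 ± 7.75 and 36.1 ± 6.49 (SD, n = 3). ARNT, its partner, had the smallest p of the list, at 62.2 ± 5.33 and 71.3 ± 3.17 CPM, a log2 fold change of -0.20. Every copper library was below every control library for 1 of the 4, ARNT (5.35% of all genes). The reverse held for 0 (5.45% of all genes). The response element core GCGTG, searched on both strands, was present in NQO1, NQO2, OSGIN1, CBR1, EPHX1 and UGDH. It was in 6 of the 11 windows of the described genes and in 36.5% of all windows.

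Among 19 other quinone and carbonyl reductases and flavoprotein reductases, all were tested and 14 lay above 0 in log2 fold change, median 0.22. Of these genes 0 were called in the 6 libraries with or without the block. AIFM2 was called in replicates 1 and 2 alone (edgeR without the block), where 0.501% of all genes were called higher. AIFM2 had the smallest p. Every copper library was above every control library for 5 of the 19, AIFM2, CYB5R1, BLVRA, DHRS11 and DHRS7 (5.45% of all genes). The reverse held for 0 (5.35% of all genes). The median of the list in pairs 1, 2 and 3 was 0.03, 0.24 and 0.35. POR, the electron donor of cytochromes P450 such as CYP4F11, was at 184 CPM in both groups.

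Around UGDH, 8 of 16 genes that make or use UDP-glucuronate were tested, 6 lay above 0 in log2 fold change, and 0 were called in the 6 libraries with or without the block. HAS3 was called in replicates 1 and 2 alone (edgeR without the block), where 0.501% of all genes were called higher. UGP2, which makes the substrate of UGDH, was at 176 ± 7.07 CPM in copper and 179 ± 7.21 in control. HAS3, a hyaluronan synthase gene that consumes its product, had the smallest p of this list, with 15.2 ± 1.22 and 10.6 ± 0.72 CPM (SD, n = 3). Its log2 fold change was 0.52, at edgeR adjusted p-values of 0.924 unblocked and 0.224 blocked. UGT1A1 and UGT1A6 share exons, so their counts are uncertain. UGT1A1 differed by 0.39, 0.29 and -0.30 in the 3 pairs and UGT1A6 by 0.41, -0.03 and -0.44. Of the other epoxide hydrolases only LTA4H was tested, at -0.04, and of the other family 4 cytochromes P450 only CYP4V2, at -0.03.

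**Figure D4:**
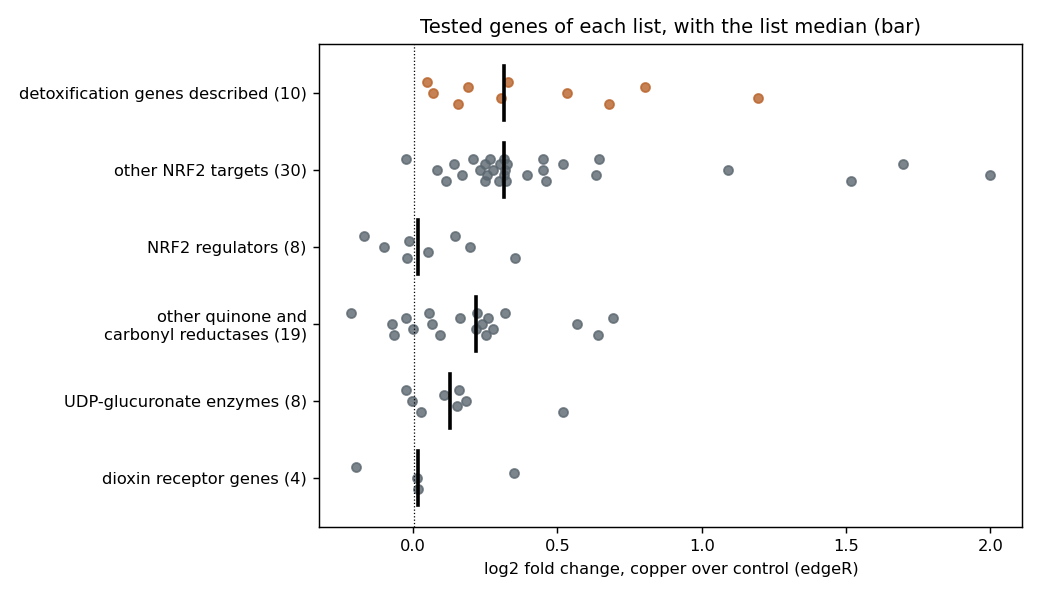
Log2 fold change, copper over control (edgeR without the block), of every tested gene in 6 lists, with the list median as a bar, the number of tested genes in parentheses and the median of all genes as a dotted line. The 10 described genes and the other NRF2 targets have medians of 0.32, and the NRF2 regulators and dioxin receptor genes have medians of 0.02. The regulators run from -0.17 to 0.36 and the dioxin receptor genes from -0.20 to 0.35.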

How the data were processed

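The authors deposited 1 table of raw counts per gene for 6 libraries of 786-O cells, per the file header. Libraries were directional (NEBNext Ultra II, from total RNA), as the labels' protocols state. The submitters' processing notes name STAR, FastQC, edgeR and the build GRCh38, with no versions. The counting program and its use of strand are not given in the sources used here. Starts in the table count from 0, and 1 was added. Rows without a symbol (5 rows, 0.000814% of counts) were left out.

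The analysis ran in edgeR 4.0.16 under R 4.3.3, with filterByExpr (minimum count 10, minimum total 15), TMM scaling, and the robust quasi-likelihood test, two-sided, on group alone. Benjamini-Hochberg adjustment covered all 12944 genes tested, and a gene was called at an adjusted p under 0.05. CPM are counts over TMM-scaled library size. The prior count for log2 fold changes was 2. Scripts were tested on simulated data. Within-group chi-square statistics were at least 5.40 per degree of freedom, so no libraries of a group agreed within counting noise.

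The labels number both groups 1 to 3 but name no shared batch. Copper replicates 1, 2 and 3 also carry the numbers 6, 7 and 9, and the control replicates 1, 2 and 4. What these numbers stand for is not stated. Deviations of same-numbered libraries from their group means correlated across genes at 0.46, 0.40 and 0.65. All were over the minimum of 0.1 for pairing, so the fit with a replicate block is given where it changes a call. Crossed pairs passed that minimum too, copper 2 with control 1 at 0.27 and copper 1 with control 2 at 0.32. The pairing within replicates 1 and 2 is thus less certain than that of replicate 3. Alternatives were other scalings and filters, DESeq2 1.42.0, voom of limma 3.58.1, a prior count of 0.125, replicates 1 and 2 alone and each library left out. The calls of the gene lists in replicates 1 and 2 alone were added after seeing the data.

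The members and lists were chosen with earlier results of these data known. Named genes were the 10 members, the gene with the smallest p and those called in each list, the 5 nearest to NQO1 in profile, and paralogs or antisense genes of members. Other list genes named (GCLC, NFE2L2, KEAP1, MAFG, NFE2L1, PAX8, CA9, AHR, CYP1B1, POR, UGP2, UGT1A1, UGT1A6, the reductases without overlap and genes called in replicates 1 and 2 alone) were chosen after their values were seen.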

Additional observations from a re-analysis of the deposited data

How the results depend on the processing

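The count of all genes called was 0 without the block. The replicate block gave 22, DESeq2 27, DESeq2 with the block 58 and no filter 12. Calls numbered 111 in replicates 1 and 2 alone and 912 in those with the block. Leaving out 1 library gave 0 to 15, with 15 without copper replicate 3, and the blocked fit gave 74, 77 and 912 without replicates 1, 2 and 3. Of the 10 described genes, 3 were called by DESeq2, 2 with the replicate block, 3 by DESeq2 with the block, 3 in replicates 1 and 2 alone and 6 in those with the block (NQO1, PIR, OSGIN1, UGDH, TRIM16L and CYP4F11). That number was 0 to 1 with 1 library left out and 3 to 6 in the blocked fit with a pair left out. The genes without overlap numbered 5 to 7 across scalings, no filter and left-out libraries, where 4.37% to 17.0% of all genes had every copper library higher. They always included NQO1, PIR, OSGIN1, EPHX1 and CYP4F11. Over 20 alternatives, 170 of the fold changes kept direction and call, 24 became called and 6 reversed. With single libraries left out, NQO2 ranged from -0.00868 to 0.279 and CBR3 from -0.0250 to 0.189. Without copper replicate 3 they were at -0.00868 and -0.0145. CBR3 was at -0.0250 and -0.0133 without control replicates 1 and 2, and at -0.0733 with the block without replicate 1. UGDH was at -0.00129 with the block without replicate 2. The cause was not tested. NQO1 ranged from 0.60 to 0.73, PIR from 0.65 to 0.91, OSGIN1 from 0.38 to 0.68 and CYP4F11 from 1.01 to 1.41. No scaling moved the all-gene median beyond 0.032. CBR3 and CYP4F11 had the fewest counts, 49 to 117 per library.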

Other observations

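The divergent gene UGDH-AS1, which begins 399 bases from the UGDH end given in the table and runs on the opposite strand, was singled out after its values were seen. It had 13 to 14 counts in the copper libraries and 19 to 24 in the control libraries. After scaling it was at 0.76 ± 0.03 CPM in copper and 0.98 ± 0.06 in control (SD, n = 3), with every copper library below every control library, while UGDH itself overlapped between groups. Its log2 fold change was -0.33, with an adjusted p by edgeR of 1.00 without the block and 0.685 with it.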
